A study of Mus musculus with 8 samples.

Results

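The genes described here are 10 genes of the smooth muscle contractile apparatus that activated fibroblasts (myofibroblasts) also use: *Acta2*, *Actg2*, *Myh11*, *Myl9*, *Cnn1*, *Cald1*, *Tagln*, *Tpm1*, *Tpm2* and *Flnc*. They were named with earlier results of these data known and were taken by gene symbol, under a rule that uses no measured value, from the 18990 genes with deposited values, and all 10 passed the filter on low values (a mean of 1 CPM or more across the 8 libraries) and were tested. The cells were primary mouse embryonic fibroblasts (MEFs) of strain BL6, as labelled, and wild-type genotype. All of them carried lentiviruses with the doxycycline-inducible tet-STEMCCA cassette (*Oct4*, *Sox2*, *Klf4* and *c-Myc*) and with rtTA, the protein through which doxycycline switches it on, and all were grown in doxycycline, LIF, ascorbic acid, the GSK3 inhibitor Chiron and an ALK5 inhibitor, which blocks the receptor kinase for TGF-β. One group of cells received 40 nM of a pool of siRNAs against *Ncor1*, a nuclear receptor corepressor (*siNcor1*), the other a pool against *Oct4* (*siOct4*), and total RNA was sequenced on day 3 and on day 6 of reprogramming. Each of the 4 groups has 2 biological replicates. Libraries of a non-targeting control were not analysed here, so the comparisons set one knockdown, or one day, against the other. The cultures were not sorted as far as the labels say, so in each library fewer cells with a contractile programme and less of its RNA per cell cannot be told apart.

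In smooth muscle, contraction is driven by smooth muscle myosin pulling on filaments of smooth muscle actin, and is set by phosphorylation of the myosin light chain, while calponin, caldesmon and tropomyosin on the actin filament modulate it. Fibroblasts take up the same genes when they are activated by TGF-β or by mechanical tension, and α-smooth muscle actin is the usual marker of the resulting myofibroblast. Many of these genes are transcribed through serum response factor (SRF), which binds a DNA element named the CArG box together with myocardin or the myocardin-related factors MRTF-A and MRTF-B, and the latter enter the nucleus when actin polymerises under control of RhoA and ROCK. MEFs in culture express this programme without being smooth muscle cells.

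The 300 bases around the start of each gene (250 before and 50 after it, RefSeq, build GRCm38.p6) were searched on both strands for the CArG box (CC, then 6 bases that are each A or T, then GG) and for the same element with 1 G or C among these 6 bases. RefSeq promoters were matched for 7 of the 10 genes (9 promoters, since *Cald1* and *Flnc* have more than one), and none was used for *Tagln*, *Actg2* and *Myh11*. The 3 promoters with a match are shown because the CArG box is the element through which SRF acts, and the matches are in capitals. The first is on the minus strand at chr19:34255324-34255623, the second on the plus strand at chr2:156775214-156775513, and the third on the plus strand at chr6:29432903-29433202.
Acta2: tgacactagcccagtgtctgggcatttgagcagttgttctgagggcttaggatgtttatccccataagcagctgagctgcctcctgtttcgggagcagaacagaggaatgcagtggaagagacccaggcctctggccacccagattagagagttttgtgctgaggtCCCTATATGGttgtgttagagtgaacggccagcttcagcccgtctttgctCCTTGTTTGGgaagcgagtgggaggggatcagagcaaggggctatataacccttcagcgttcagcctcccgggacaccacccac
Myl9: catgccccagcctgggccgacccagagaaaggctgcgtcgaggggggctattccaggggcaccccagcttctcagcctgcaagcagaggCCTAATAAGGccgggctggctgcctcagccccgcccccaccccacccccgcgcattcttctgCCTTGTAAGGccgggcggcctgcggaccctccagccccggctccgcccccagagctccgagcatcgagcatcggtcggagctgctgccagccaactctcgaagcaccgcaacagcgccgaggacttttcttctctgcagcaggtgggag
Flnc: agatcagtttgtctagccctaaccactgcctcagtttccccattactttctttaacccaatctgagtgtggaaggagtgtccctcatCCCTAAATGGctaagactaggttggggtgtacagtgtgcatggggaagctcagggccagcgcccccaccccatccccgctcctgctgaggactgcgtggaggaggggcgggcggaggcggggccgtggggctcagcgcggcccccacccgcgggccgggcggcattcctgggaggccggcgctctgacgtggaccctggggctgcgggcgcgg
The match in *Myl9* that begins 161 bases before the start is a full CArG box, and the one that begins 99 bases before it has 1 G. The *Acta2* matches begin 84 and 34 bases before the start, and the *Flnc* match 163 bases before it, each with 1 G or C. A full box is found in 1.63% and the form with 1 G or C in 8.50% of the 32851 RefSeq promoters of this length. The *Cnn1*, *Tpm1*, *Tpm2* and *Cald1* windows hold neither. The MCAT element (CATTCC on either strand), which TEAD proteins bind, is in 5 of the 9 promoters of these genes and in 14.7% of all. It is in the *Acta2* and *Tpm1* windows, in 1 of the *Cald1* windows and in both *Flnc* windows. The *Flnc* windows overlap and hold the same MCAT site, which is thus counted in each. No MCAT match overlaps a CArG match. These are matches of letters and not measurements of binding.

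The libraries held between 7735742 and 16445192 reads on genes, as recovered from the deposited log2-cpm values (log2 of read counts scaled by library size), and 3 reads correspond to between 0.174 and 0.380 CPM. The libraries labelled *siOct4* did not have less *Pou5f1* (*Oct4*) RNA than *siNcor1*, since the log2-fold change was −0.08 at day 3 (adjusted p = 0.941) and 1.78 at day 6 (adjusted p = 0.000109, higher), and here the RNA of the cassette cannot be told apart from that of the mouse gene. *Ncor1* was 0.74 higher on the log2 scale in the libraries labelled *siOct4* at day 3 (adjusted p = 0.0139) and had −0.04 at day 6 (adjusted p = 0.815). Its day 3 call was lost without any one of the 4 day 3 libraries. For these reasons *siOct4* below names the label, and not a loss of *Oct4* RNA measured in these libraries. The 9 fibroblast markers fixed as a list were all detected in every group, with a summed level of 8283 to 8437 CPM in *siNcor1* at day 3, 11003 to 12488 in *siOct4* at day 3, 6232 to 6455 in *siNcor1* at day 6 and 3460 to 3650 in *siOct4* at day 6. The 5 endothelial markers summed to between 17.0 and 44.8 CPM and the 3 macrophage markers in the files to between 4.35 and 10.0 CPM in any library. The non-coding gene *Gm26917* took 15.5% to 16.6% of the reads at day 3 and 20.3% to 29.1% at day 6. Another scaling of the libraries moved the median log2-fold change of all genes to between −0.11 and 0.03 at day 6 between the knockdowns and to between −0.14 and 0.06 over time in *siOct4*, against which the changes of the contractile genes are given.

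*Acta2*, which encodes α-smooth muscle actin, had the highest level for its length of the 10 genes in all 4 groups. Its mean was 573 CPM per kilobase of exon in *siNcor1* at day 3 and 967 in *siOct4* at day 3. The length counts every annotated exon base of a gene, and the order depends on it. In plain CPM *Acta2* was not the highest at day 6. It had 279 in *siNcor1* beside 401 for *Flnc*, and 101 in *siOct4* beside 183 for *Tpm1*. In *siNcor1* at day 3 it was followed by *Myl9* (141) and *Actg2* (132), then by *Tpm1* (96.1) and *Tpm2* (83.8), and then by *Flnc* (53.2), *Cnn1* (51.5) and *Cald1* (48.9). Neighbours in the order from *Myl9* to *Cald1* overlapped between the libraries, except that both *Tpm2* values lay above both *Flnc* values. *Myh11* had 22.0 CPM per kilobase and *Tagln* 2.28. In *siOct4* at day 6 the order had changed: *Acta2* (46.1 CPM per kilobase) was followed by *Tpm1* (28.2), *Flnc* (19.0), *Myl9* (16.9) and *Tpm2* (16.7), and *Cnn1* had 5.20. The summed level of the 10 genes was 3370 to 4418 CPM in *siNcor1* and 5758 to 6390 in *siOct4* at day 3, and 1590 to 1603 in *siNcor1* and 729 to 754 in *siOct4* at day 6, so that no library of any group reached into the range of another.

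**Figure D1:**
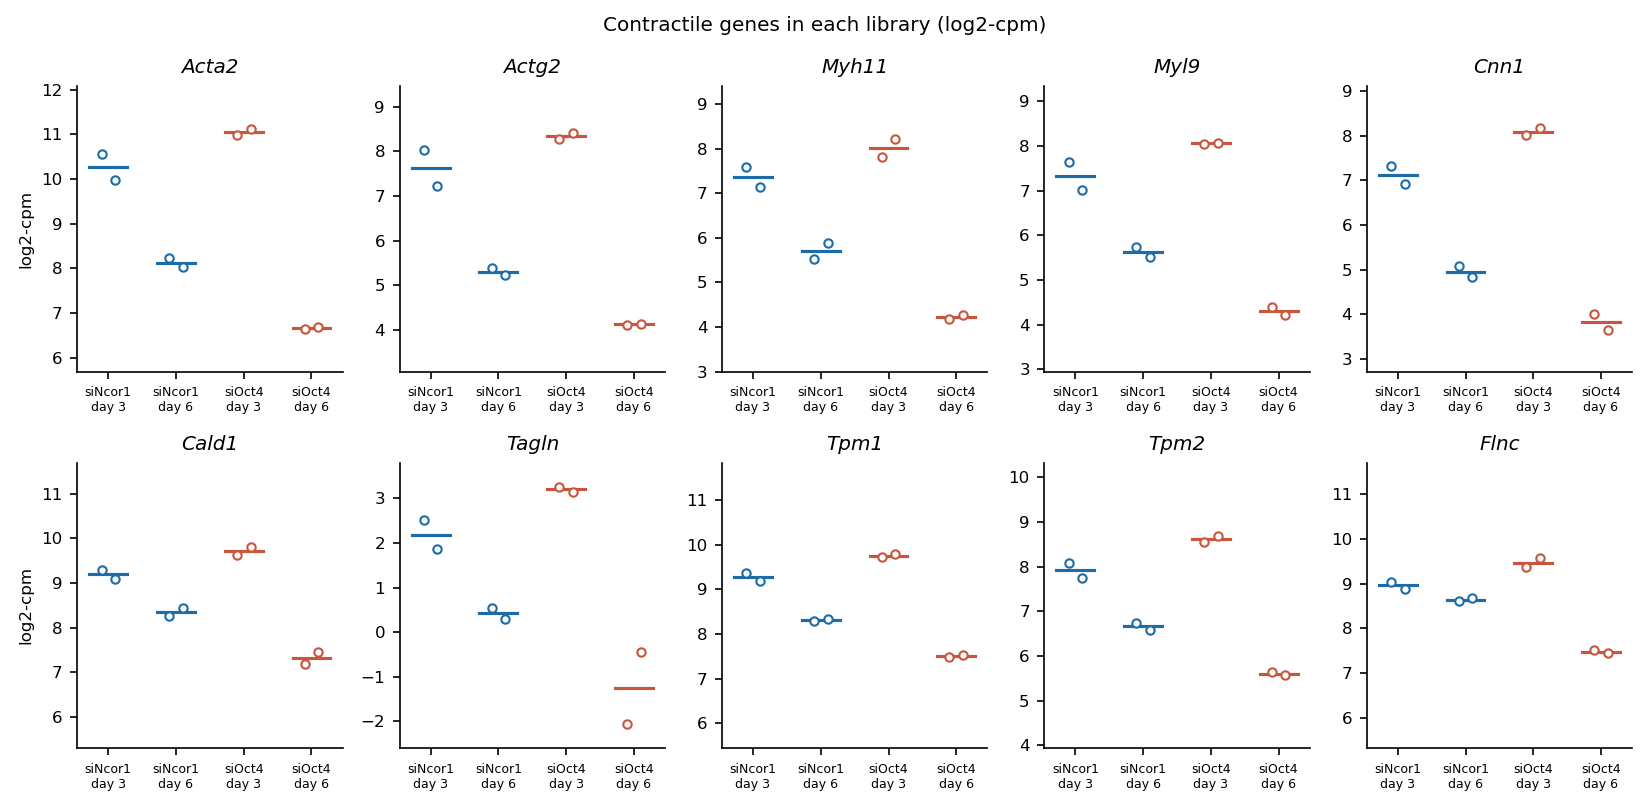
Log2-cpm of each contractile gene in the 8 libraries, with one panel per gene, circles for libraries, lines for group means and the same span of 6.4 log2 units on every y axis. In each panel the *siOct4* libraries are the highest at day 3 and the lowest at day 6, with *siNcor1* between them.

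The actins form the thin filament. *Acta2* (ENSMUSG00000035783, chromosome 19, 34241090 to 34255590, minus strand, mm10) had a log2-cpm of 10.56 and 9.98 in the *siNcor1* libraries at day 3 and of 10.99 and 11.12 in the *siOct4* libraries at day 3. At day 6 it had 8.22 and 8.02 in *siNcor1*, and 6.64 and 6.68 in *siOct4*. Thus the *siOct4* libraries were the higher ones at day 3 and the lower ones at day 6, with no overlap on either day. *Actg2*, the γ-smooth muscle actin typical of gut and bladder (ENSMUSG00000059430, chromosome 6, 83512905 to 83536265, minus strand), had 8.03 and 7.23 in *siNcor1* and 8.27 and 8.42 in *siOct4* at day 3, and 5.39 and 5.22 in *siNcor1* and 4.11 and 4.14 in *siOct4* at day 6. Its *siNcor1* libraries at day 3 were 0.80 apart, the widest gap between replicates outside *Tagln*.

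Myosin supplies the force. *Myh11*, the smooth muscle myosin heavy chain and the most specific of these genes for smooth muscle (ENSMUSG00000018830, chromosome 16, 14194535 to 14291372, minus strand), had a log2-cpm of 7.59 and 7.14 in *siNcor1* and of 7.82 and 8.21 in *siOct4* at day 3. At day 6 the values were 5.52 and 5.89 in *siNcor1*, and 4.19 and 4.27 in *siOct4*. *Myl9*, the regulatory light chain that is phosphorylated to start contraction (ENSMUSG00000067818, chromosome 2, 156775420 to 156781658, plus strand), had 7.64 and 7.00 in *siNcor1* and 8.04 and 8.08 in *siOct4* at day 3, and 5.74 and 5.50 in *siNcor1* and 4.40 and 4.21 in *siOct4* at day 6. Both genes had the same order of the groups as *Acta2*.

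The next genes bind and regulate the actin filament. *Cnn1*, calponin, which inhibits the myosin ATPase on actin (ENSMUSG00000001349, chromosome 9, 22099216 to 22109630, plus strand), had a log2-cpm of 7.33 and 6.92 in *siNcor1* and of 8.02 and 8.17 in *siOct4* at day 3, and of 5.08 and 4.83 in *siNcor1* and 4.01 and 3.66 in *siOct4* at day 6. *Cald1*, caldesmon, an actin-binding inhibitor that non-muscle cells also use (ENSMUSG00000029761, chromosome 6, 34598500 to 34775473, plus strand), had 9.30 and 9.09 in *siNcor1* and 9.62 and 9.81 in *siOct4* at day 3, and 8.25 and 8.43 in *siNcor1* and 7.19 and 7.45 in *siOct4* at day 6. In both, *siOct4* moved further between the days than *siNcor1*. The tropomyosins lie along the filament and gate the access of myosin. *Tpm1* (ENSMUSG00000032366, chromosome 9, 67022590 to 67049406, minus strand) lay between 9.19 and 9.80 in the day 3 libraries, and had 8.30 and 8.33 in *siNcor1* and 7.49 and 7.54 in *siOct4* at day 6. *Tpm2* (ENSMUSG00000028464, chromosome 4, 43514711 to 43523765, minus strand) lay between 7.75 and 8.70 at day 3, and had 6.75 and 6.59 in *siNcor1* and 5.64 and 5.57 in *siOct4* at day 6. *Flnc*, filamin C, a crosslinker of actin at sites of tension (ENSMUSG00000068699, chromosome 6, 29433256 to 29461883, plus strand), had 9.04 and 8.89 in *siNcor1* and 9.37 and 9.58 in *siOct4* at day 3, and 8.61 and 8.68 in *siNcor1* and 7.51 and 7.45 in *siOct4* at day 6. *Flnc* was the gene whose *siNcor1* libraries were closest between the days.

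*Tagln*, transgelin or SM22α, is an actin-binding protein of the calponin family (ENSMUSG00000032085, chromosome 9, 45929619 to 45936058, minus strand). It had only 90 and 60 reads in *siNcor1* and 138 and 69 in *siOct4* at day 3, and 16 and 13 in *siNcor1* and 1 and 7 in *siOct4* at day 6. Of its 1988 exon bases, 1349 (67.9%) are also exon of genes on the other strand, 1241 of them of the antisense gene *Gm48529* and 108 of *Pcsk7*. Of its 43-base windows, the length of a read, 59.8% also occur, on either strand, in transcripts of another gene. Of these 1185 windows 1119 are in *Gm48529*, so they mostly restate the same overlap. Its neighbour *Gm48529* had 14 and 12 reads in *siNcor1* and 16 and 9 in *siOct4* at day 3. At day 6 it had 6 and 4 in *siNcor1* and 2 and 1 in *siOct4*. *Gm48529* did not reach the filter on low values and was not tested, and *Pcsk7* was tested and was not called in any comparison. Whether the counting used strand is not given in the sources used here, so that the level of *Tagln* is uncertain and its part in these low counts was not tested. At most 0.65% of the windows of any other contractile gene were shared with another gene.

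From day 3 to day 6, 9 of the 10 contractile genes fell in *siNcor1* and all 10 fell in *siOct4*. The median log2-fold change of the 10 genes was −1.68 in *siNcor1* and −3.77 in *siOct4*, beside −0.07 and −0.08 over all genes tested. Of all 13866 genes, 20.9% were called lower and 13.8% higher in *siNcor1*, and 30.5% lower and 22.2% higher in *siOct4*. Both day 6 libraries were below both day 3 libraries for each of the 10 genes in either knockdown, which was so for 41.7% of all genes in *siNcor1* and 42.1% in *siOct4*.

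In *siNcor1* the smooth muscle actins and calponin had the greatest falls of the 10 genes. *Actg2* fell by 2.32 on the log2 scale (SE 0.20, adjusted p = 2.05e-05), to 19.99% of its day 3 level with a 95% confidence interval of 14.7% to 27.1%. *Cnn1* fell by 2.17 (SE 0.17, adjusted p = 1.26e-05) and *Acta2* by 2.15 (SE 0.18, adjusted p = 1.66e-05). *Myh11*, *Myl9*, *Tagln* and *Tpm2* followed, with log2-fold changes of between −1.76 and −1.25. *Tpm1* fell by 0.97 to 51.1% of day 3, and *Cald1* by 0.86 to 55.2%. *Flnc* did not pass the test, with a log2-fold change of −0.32 (SE 0.13, adjusted p = 0.0708) and 80.2% of the day 3 level left (66.2% to 97.2%). It passed in 3 other fits, with adjusted p of 0.0339 when only the *siNcor1* groups were fitted and about 0.046 without either *siOct4* library of day 6. *Tagln* lost its call without *siNcor1* replicate 1 of day 3 (−1.43) or replicate 2 of day 6 (−1.64).

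In *siOct4* these genes fell further. *Acta2* fell by 4.39 on the log2 scale (SE 0.18, adjusted p = 2.1e-08), a 20.9-fold lower level, to 4.78% of day 3 (3.67% to 6.23%). *Cnn1* had a log2-fold change of −4.26, with 5.21% left, and *Actg2* −4.22, with 5.37% left. The actins and calponin were thus the genes with the least RNA left beside *Tagln*. *Myh11* had a log2-fold change of −3.79 and 7.23% of day 3 left, *Myl9* −3.75 and 7.41%, and *Tpm2* −3.02 and 12.3%. The 3 genes with more of their RNA left were *Cald1* at 19.0%, *Tpm1* at 21.1% and *Flnc* at 25.1% (20.7% to 30.4%). For *Tagln* the pooled reads went from 207 to 8, a ratio of 4.12% of day 3 (exact counting interval 1.76% to 8.28%, which covers counting error only).

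**Figure D2:**
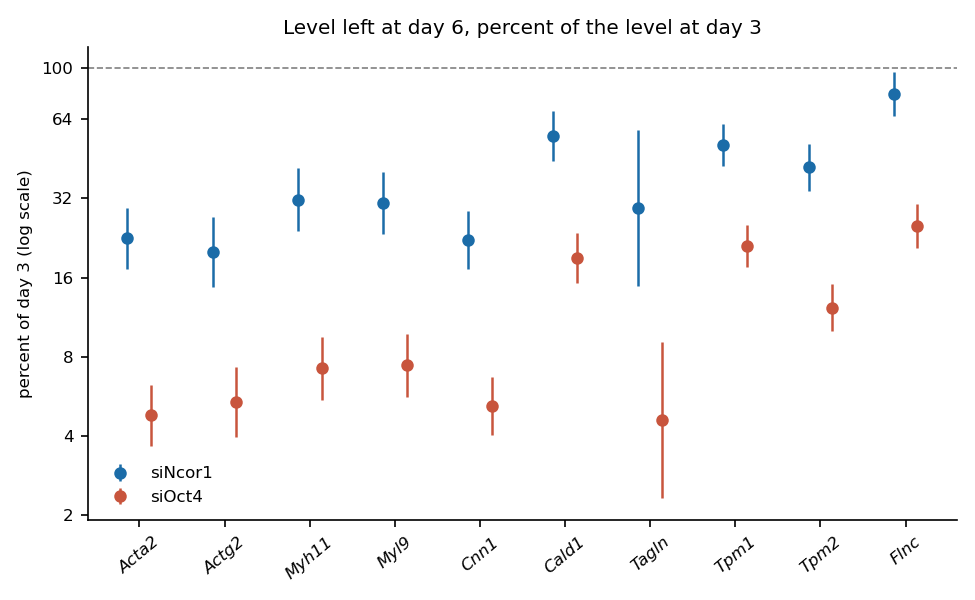
Level at day 6 as a percent of day 3 on a log scale for each contractile gene in *siNcor1* and *siOct4*, with bars for the 95% confidence interval of the limma fit and a dashed line at 100%. The *siOct4* values lie between 4.58% and 25.1% and the *siNcor1* values between 19.99% and 80.2%, and for every gene *siOct4* is the lower one.

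The difference between the knockdowns itself was compared on each day. At day 3 the 10 genes had log2-fold changes in *siOct4* against *siNcor1* of 0.47 to 1.01, with a median of 0.71 beside −0.02 over all genes, but only *Cnn1* (0.97, SE 0.17, adjusted p = 0.0201) and *Tpm2* (0.71, SE 0.14, adjusted p = 0.0286) passed the test. *Acta2* had 0.78 (adjusted p = 0.0604), *Myl9* 0.73 (0.0871 for its adjusted p) and *Flnc* 0.51 (0.0873). Of all genes 0.375% were called higher at day 3. Both *siOct4* libraries were above both *siNcor1* libraries for all 10 genes, which was so for 20.7% of all genes.

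The day 3 calls rest on few libraries, while the log2-fold changes of all 10 genes stayed above 0 without any one of them. In *siNcor1* at day 3, replicate 1 was above replicate 2 for all 10 genes, by 0.15 to 0.80 on the log2 scale (median 0.43), while over all genes the median gap was 0.01 and 52.0% were higher in replicate 1. Without any one of the 4 day 3 libraries no contractile gene passed, and calls over all genes became fewer as well. *Tpm2* then had 0.54 without *siNcor1* replicate 2 and 0.88 without *siNcor1* replicate 1. Without either *siOct4* library of day 6, which enters only the estimate of the spread, more contractile genes passed, as did more of all genes. Without either *siNcor1* library of day 6 *Tpm2* lost its call, and fewer of all genes passed.

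At day 6 the direction was the opposite and all 10 genes were lower in *siOct4*, with log2-fold changes of −1.67 to −0.80 and a median of −1.17, beside −0.03 over all genes. Of all genes 18.6% were called lower and 12.1% higher, and 34.8% had both *siOct4* libraries below both *siNcor1* libraries, as all 10 contractile genes did. *Myh11* had −1.48 (SE 0.18, adjusted p = 0.000438), at 35.9% of the *siNcor1* level (27.3% to 47.3%), and *Acta2* −1.46 (SE 0.18, adjusted p = 0.0004), at 36.5%. *Myl9* had −1.32, *Actg2* −1.18, *Flnc* −1.16, *Cnn1* −1.12, *Tpm2* −1.06 and *Cald1* −1.02. *Tpm1* had the smallest difference, −0.80 (SE 0.12, adjusted p = 0.00101), at 57.5% of *siNcor1*. *Tagln* had −1.67 (SE 0.45, adjusted p = 0.0166) from 29 pooled reads in *siNcor1* and 8 in *siOct4*, and it lost its call without either *siNcor1* library of day 6, without *siOct4* replicate 1 of day 6 (−0.87) and when only the day 6 groups were fitted.

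The change of this difference between the days was tested as an interaction, and it was negative for all 10 genes, from −2.68 for *Tagln* to −1.27 for *Tpm1* (median −1.98, beside 0.01 over all genes), with adjusted p of at most 0.0138. Of all genes 12.9% were called lower in this test. *Acta2* had −2.24 (SE 0.25, adjusted p = 0.000608), *Myh11* −2.13, *Cnn1* −2.09 and *Myl9* −2.05. *Flnc*, which did not pass over time in *siNcor1*, had −1.68 (SE 0.18, adjusted p = 0.000597). *Tagln* lost its call without *siNcor1* replicate 2 of day 3 (−2.36). The comparisons share libraries, so a high day 3 level in *siOct4* enters both the day 3 difference and the fall over time in *siOct4*.

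**Figure D3:**
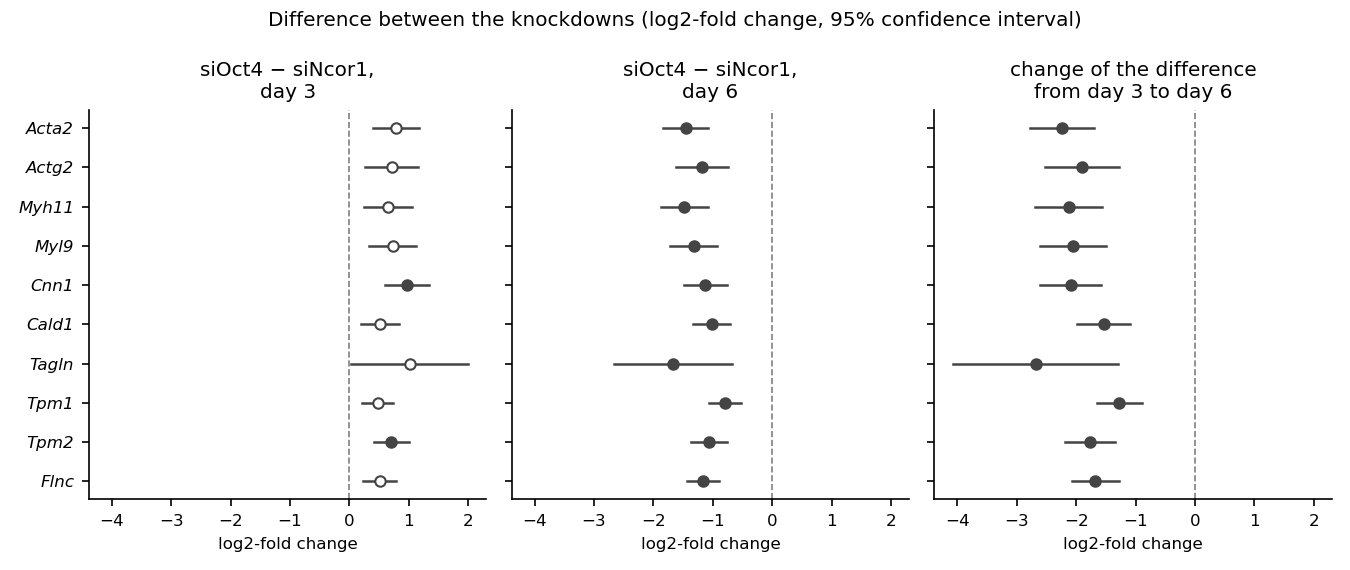
Log2-fold change of *siOct4* against *siNcor1* at day 3, at day 6, and the change of this difference, for each contractile gene with its 95% confidence interval, where filled circles passed the limma test at an adjusted p of 0.05. At day 3 all 10 are above 0 and 2 are filled, and at day 6 all 10 are below 0 and filled.

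Most of these contractile genes belong to families with members that all cells use, and shares of the summed family level per kilobase do not depend on the scaling of the libraries. *Acta2* made up 19.2% ± 1.6 (SD, n = 2) of the actins in *siNcor1* and 24.7% ± 1.7 in *siOct4* at day 3, and 8.39% ± 0.05 and 4.35% ± 0.67 at day 6, whereas the cytoplasmic *Actb* went from 70.3% to 83.3% in *siNcor1* and from 64.7% to 87.1% in *siOct4*. Per kilobase, *Myl9* was the leading light chain at day 3, with 51.1% ± 5.2 in *siNcor1* and 60.4% ± 2.1 in *siOct4*. It had 24.8% ± 0.9 and 13.5% ± 1.2 at day 6, when *Myl6*, the essential light chain, led with 40.9% and 50.0%. These shares depend on the length used, which is all annotated exon bases (1162 for *Myl9*, 3187 for *Myl6*). In plain CPM at day 3, *Myl6* was above *Myl9* in *siNcor1* (201 and 164) and below it in *siOct4* (239 and 266). Thus the share of *Acta2* was smaller at day 6 and that of *Actb* larger. The share of *Myl9* was also smaller at day 6, and that of *Myl6*, a different kind of light chain, larger. The other regulatory light chains had larger shares at day 6 too. *Myl12a* went from 19.6% to 23.1% in *siNcor1* and from 16.3% to 21.8% in *siOct4*, and *Myl12b* from 5.90% to 11.1% and from 3.41% to 14.6%. *Cnn1* went from 20.8% to 8.48% of the calponins in *siNcor1* and from 30.1% to 7.35% in *siOct4*, and *Myh11* from 10.2% to 5.17% and from 12.6% to 3.25% of the heavy chains, where non-muscle *Myh9* held 72.3% to 84.7%. *Tpm2* went from 27.8% to 13.5% of the tropomyosins in *siOct4*, while *Tpm1* held 22.7% to 27.2% in all 4 groups.

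**Figure D4:**
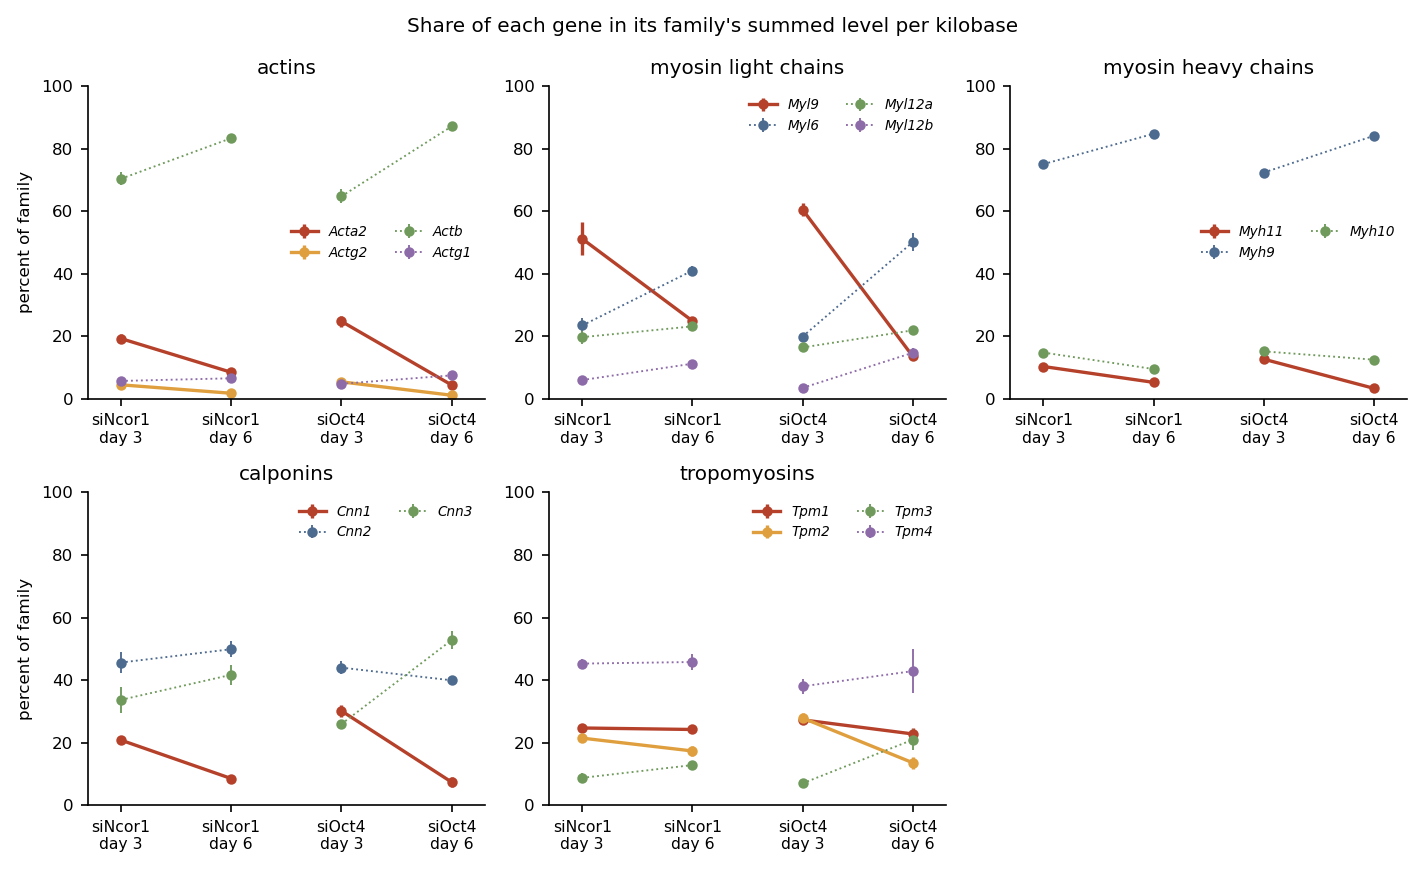
Share of each gene in the summed level per kilobase of its family, as the mean of 2 libraries per group with bars for the SD, with solid lines for the contractile genes and dotted lines for their relatives (*Acta1*, *Actc1* and *Myh14*, each at most 0.69%, are in the sums but not drawn). *Acta2*, *Actg2*, *Myl9*, *Cnn1*, *Myh11* and *Tpm2* have smaller mean shares at day 6 than at day 3 in both knockdowns, and *Tpm1* stays between 22.7% and 27.2%.

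Most, but not all, of the general family members fell over time in *siOct4* too. *Actb* fell by 1.45 (SE 0.22, adjusted p = 0.000232) and *Actg1* by 1.23 on the log2 scale. In mean log2-cpm, *Cnn2* went from 8.49 to 6.13, *Tpm4* from 8.68 to 6.86, *Myh9* from 11.30 to 9.68 and *Cnn3* from 8.03 to 6.83. Among these, *Cnn2* fell by more than the contractile gene *Flnc*, which went from 9.48 to 7.48. *Tpm3* fell by 0.40 (adjusted p = 0.0117), which did not pass under quantile normalization (−0.16) or with library totals that leave out *Gm26917* (−0.26) or without either *siOct4* library of day 3, and *Myl6* had −0.26 (adjusted p = 0.0865). The light chain *Myl12b* rose by 0.51 (adjusted p = 0.0204). It lost this call without the variance trend, without *siOct4* replicate 2 of day 3 (0.32) and without *siOct4* replicate 1 of day 6 (0.39). *Tagln2*, the broadly expressed transgelin, fell by 0.60 (adjusted p = 0.00552) and had a mean share of 97.0% to 98.7% of the transgelins per kilobase in the 4 groups. This share rests on the level of *Tagln*, which is uncertain as described above, so the true share of *Tagln2* may be smaller.

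The regulators and other cytoskeletal targets of SRF and MRTF were counted in a list of 38 genes (13 regulators and 25 targets, all tested). Over time 27 of the 38 fell and 2 rose in *siNcor1*, and 33 fell and 1 rose in *siOct4*, with medians of −0.67 and −1.50, beside −0.07 and −0.08 over all genes. Of all genes 20.9% were called lower and 13.8% higher in *siNcor1*, and 30.5% and 22.2% in *siOct4*. At day 3 none passed the limma test between the knockdowns (median 0.30, beside −0.02 over all genes), where 1.07% of all genes were called. By voom 1 was called, beside 158 of all 13866 genes. At day 6, 22 of the 38 were lower and 2 higher in *siOct4* (median −0.54), beside 18.6% and 12.1% of all genes. The change of the difference was negative and called for 20 and called positive for none (median −0.77), beside 12.9% and 7.77% of all genes. Without *siNcor1* replicate 2 of day 6 the day 6 count was 11 in place of 24, and without *siNcor1* replicate 1 of day 3 or of day 6 the count over time in *siNcor1* was 17 or 18 in place of 29. The count for the change of the difference was 12 without *siNcor1* replicate 2 of day 3.

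Among the targets, *Lmod1* and *Mylk* had the largest log2-fold changes over time in *siOct4*. *Lmod1*, leiomodin, which nucleates actin in smooth muscle, had −1.74 over time in *siNcor1*, −4.11 in *siOct4* and −1.73 between the knockdowns at day 6. *Mylk*, the kinase that phosphorylates the MYL9 protein, had −1.86, −3.70 and −1.47 in these comparisons. The values of both lie within the range of the 10 contractile genes over time, while at day 6 *Lmod1* lies just below it. In *siOct4* over time they were followed by *Synpo2* (−3.05), *Csrp1* (−2.67) and the focal adhesion gene *Vcl* (−2.58), and at day 6 between the knockdowns by *Cnn2* (−1.23), *Filip1l* (−1.21), *Tgfb1i1* (−1.12) and *Vcl* (−1.06). In *siNcor1* over time, *Fhl1* (−1.51), *Vcl* (−1.22) and *Synpo2* (−1.17) followed. The genes called higher were *Fhl1* and *Tagln2* at day 6 between the knockdowns (0.45 each), *Limk1* (0.56) and *Csrp2* (0.53) over time in *siNcor1*, and *Csrp2* (0.63) over time in *siOct4*. Several of these calls rest on single libraries. *Synpo2* over time in *siNcor1* had −0.49 without *siNcor1* replicate 1 of day 6 and lost its call also without either *siNcor1* library of day 3, and *Limk1* lost its call without any of these 3. *Csrp2* lost its call without any one *siNcor1* library in *siNcor1*, and without replicate 2 of day 3 in *siOct4* (0.42). *Fhl1* at day 6 lost its call without replicate 2 of either knockdown at day 6, and *Tagln2* without any one library except *siNcor1* replicate 1 and *siOct4* replicate 2 of day 6.

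The transcripts of the factors that act on these promoters were measured in the same libraries. *Srf* had 0.31 between the knockdowns at day 3 and −0.32 at day 6 (adjusted p = 0.499 and 0.121), −0.35 over time in *siNcor1* (adjusted p = 0.0843), and fell by 0.98 in *siOct4* (adjusted p = 0.000194). The change of its difference was −0.63 (adjusted p = 0.0514), close to the threshold. It passed in 6 other settings, among them voom (adjusted p = 0.0456), plain library totals (adjusted p = 0.0326) and the fit without *siOct4* replicate 1 of day 6 (−0.83, adjusted p = 0.0058), when its day 6 difference was −0.52 and passed. Its change over time in *siNcor1* passed in 4 other settings, among them those without either *siOct4* library of day 6, in which *Mkl1* passed at day 3. *Mkl1*, which encodes MRTF-A, had −0.40 over time in *siNcor1* (adjusted p = 0.0329) and −1.39 in *siOct4* (adjusted p = 6.76e-06), and its difference between the knockdowns was 0.53 at day 3 (adjusted p = 0.0834) and −0.46 at day 6 (adjusted p = 0.019), with a change of −0.99 (adjusted p = 0.00376). *Mkl2*, which encodes MRTF-B, had −0.27 in *siNcor1* (adjusted p = 0.137) and fell by 0.73 in *siOct4* (adjusted p = 0.000738), with 0.03 at day 3 and −0.43 at day 6 between the knockdowns (adjusted p = 0.0293). Its change of the difference was −0.46 (adjusted p = 0.104). *Myocd*, myocardin, had few reads, between 16 and 40 per library at day 3 and between 3 and 6 at day 6. It had −1.17 over time in *siNcor1* (adjusted p = 0.0423) and −2.68 in *siOct4* (adjusted p = 0.000212), and had 1.01 and −0.49 between the knockdowns at day 3 and day 6 with a change of −1.50, none of which passed. Over time in *siNcor1*, *Mkl1* lost its call without any one *siNcor1* library and *Myocd* also without either *siOct4* library of day 3. *Mkl1* there lost it also with median-centred libraries (−0.35), quantile normalization (−0.25), totals without *Gm26917* (−0.32) and no variance trend. *Myocd* lost it also with median-centred libraries, totals without *Gm26917* and a pseudocount of 1 CPM. At day 6, *Mkl1* and *Mkl2* lost theirs without either *siNcor1* library, and without replicate 2 (*Mkl1*) or replicate 1 (*Mkl2*) of *siOct4*. Both lost theirs also without the variance trend and when only the day 6 groups were fitted.

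**Figure D5:**
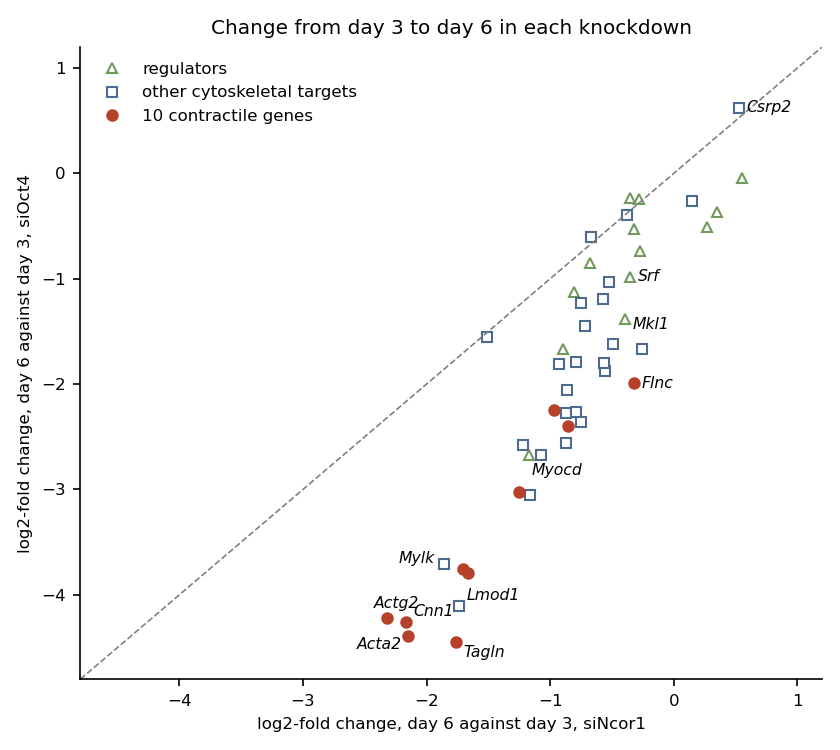
Log2-fold change from day 3 to day 6 in *siNcor1* (x axis) and *siOct4* (y axis) for the 10 contractile genes, the 25 other cytoskeletal targets and the 13 regulators, with a dashed line where both are equal. The contractile genes lie below the line, from *Flnc* at −0.32 and −1.99 to *Actg2* at −2.32 and −4.22, and *Srf* lies at −0.35 and −0.98.

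TGF-β is the best known inducer of these genes, and its receptor kinase was inhibited in all 4 groups. In a list of 8 TGF-β ligands, receptors and readouts, 7 fell and none rose over time in *siOct4*, and 4 fell and 2 rose in *siNcor1*, the latter being *Tgfb1* (0.87) and *Tgfbr2* (0.52, with no call without *siNcor1* replicate 1 of day 3 or replicate 2 of day 6). At day 6, 6 of the 8 were lower in *siOct4* than in *siNcor1*, beside 18.6% of all genes. The log2-fold changes of *Ctgf*, which TGF-β and YAP both induce, were −2.43 in *siNcor1* and −5.32 in *siOct4* over time, and −2.11 between the knockdowns at day 6. In a list of 7 immediate early genes, which SRF controls with ternary complex factors in place of MRTFs, 1 rose and none fell over time in *siNcor1* (*Ier2*, 0.40, a call lost without any one library except those of *siOct4* at day 6), and 1 rose (*Ier2*, 0.77) and 1 fell (*Egr1*, −0.97) in *siOct4*. Beside both lists, 20.9% of all genes were called lower and 13.8% higher over time in *siNcor1*, and 30.5% and 22.2% in *siOct4*.

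Some lists of markers of other cells differed between the groups, while for others, such as the pericyte markers, the sums of some groups overlapped. Of the 9 fibroblast markers, 2 fell over time in *siNcor1* (*Col1a1* and *Col1a2*) and 5 rose, and in *siOct4* 5 fell and *Dcn* and *Lum* rose, and 7 were lower in *siOct4* at day 6. The shares of all genes were 20.9% lower and 13.8% higher in *siNcor1*, 30.5% and 22.2% in *siOct4*, and 18.6% lower at day 6. The 6 epithelial or pluripotent markers summed to 51.0 to 52.7 CPM in *siNcor1* and 10.3 to 16.2 in *siOct4* at day 3, with *Zfp42* at 0 reads, and to 323 to 338 in *siNcor1* and 188 to 204 in *siOct4* at day 6. The 8 markers of differentiated smooth muscle, which include *Myh11*, summed to 252 to 366 CPM in *siNcor1* and 442 to 520 in *siOct4* at day 3, and to 125 to 129 and 58.2 to 65.7 at day 6. The 6 pericyte markers summed to between 109 and 160 CPM and the 6 skeletal and cardiac muscle markers in the files to between 14.9 and 48.1 CPM in any library. The part of a change in the mix of cells in the levels of the contractile genes was not tested.

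The 4 genes most like the mean of the 10 contractile genes over the 8 libraries, by the Pearson correlation of log2-cpm, were *Csrp1* (r = 0.998), *Sidt2*, *Lasp1* and *Rnf111*, and 79 genes had r of at least 0.99. The contractile genes had r of 0.958 (*Flnc*) to 0.999 (*Tpm1*) with this mean, which includes them. Those most like *Acta2* alone among other genes were *Lasp1*, *Rnf111*, *Ppfibp1*, *Fam149a* and *Ctgf*. With 8 libraries in 4 groups such values describe the order of the group means, and *Sidt2* and *Rnf111* fell by only 0.63 and 0.76 in *siOct4* over time.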

How the data were processed

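RNA-seq libraries were prepared from total RNA after ribosomal RNA depletion and sequenced as paired reads of 43 bases. Per the labels and the paper, STAR 2.5.2b and mm10 were used by the authors for alignment, and they computed log2-cpm with edgeR 3.20.9, and these log2 values were deposited for 18990 genes in 8 libraries. The tool that counted reads is not given in the sources used here. All 8 value columns were mapped to samples by name (0 unmapped). Whole reads were recovered from the values (100% within 0.1 read), which gave 7735742 to 16445192 reads per library. Intervals from reads cover counting error only.

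Coordinates come from GENCODE M21 (GRCm38), matched by Ensembl identifier for 18969 genes, and promoters from RefSeq. The filter on low values (mean CPM of 1 or more) left 13866 genes, which were fitted with limma 3.58.1 in R 4.3.3 (lmFit, eBayes with its trend option, the 4 groups together, Benjamini-Hochberg over all genes tested, threshold 0.05, two-sided), after tests on simulated data. The replicates are labelled as biological, and whether same-numbered ones share a culture is not stated. Plots were made in matplotlib 3.10.9.

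The 10 genes and all lists were chosen with earlier results of these data known. All 10 are named whatever they did. Of the SRF and MRTF list, *Srf*, *Mkl1*, *Mkl2* and *Myocd* and at most 6 called genes with the largest absolute log2-fold change per comparison are named. Genes in counts of 5 or fewer and some family and TGF-β genes were named after their values were seen. Some listed genes are not reported here and were left out of their lists. The alternatives were other scalings, filters, pseudocounts, fits and sets of libraries, and voom on the recovered reads.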

Additional observations from a re-analysis of the deposited data

Results flagged for a closer look

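For all 10 contractile genes the difference between *siOct4* and *siNcor1* changed from day 3 to day 6 by the interaction test of limma (adjusted p of at most 0.0138). The change on the log2 scale was −2.68 for *Tagln*, −2.24 for *Acta2*, −2.13 for *Myh11*, −2.09 for *Cnn1*, −2.05 for *Myl9*, −1.90 for *Actg2*, −1.77 for *Tpm2*, −1.68 for *Flnc*, −1.54 for *Cald1* and −1.27 for *Tpm1*. In each of the 10 genes *siOct4* had the higher mean at day 3 and the lower mean at day 6. Groups of 2 libraries are too small to look for single libraries that stand apart.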

How the results depend on the processing

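Over 20 other settings the 985 log2-fold changes of the contractile genes kept their direction, 949 kept their side of the threshold, 19 lost and 17 gained a call. In *siOct4* over time every contractile gene with a value was called in each setting, and at day 6 9 or 10 were. The 2 calls at day 3 became 0 without the variance trend and 0 to 7 when single libraries were left out. The pathway list, with no call at day 3, had 2 with median-centred libraries, 2 in fits of only the groups compared, 1 by voom and 0 to 4 without single libraries. Leaving out single libraries gave 11 to 23 of its genes at day 6 (24 with all), 17 to 33 over time in *siNcor1* (29) and 12 to 24 for the change of the difference (20). Causes were not tested, and a lone library left in a group was assumed to vary like the other groups. *Tagln* has no value with a mean of at least 10 CPM, and fits of only the groups compared give no change of the difference. By voom 4238 of 13866 genes were called at day 6, beside 4251 by the limma fit.

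The deviations of same-numbered libraries correlated weakly (−0.04 to 0.28, positive for 5 of 6 pairs of groups) and not above 0.1 in every pair, so the numbers were not taken as pairs. With the replicate number as a block, 4 contractile genes and 2 pathway genes passed at day 3, and no other count of calls moved by over 1.5 times.

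Of 1401 values of other named genes, 6 changed sign, none of them called. *Myocd* at day 6 had 0.13 under quantile normalization. *Ncor1* at day 6 had 0.0062 under quantile normalization and −0.139 to 0.054 without single libraries. *Mkl2* at day 3 had −0.066 to 0.119 without single libraries, −0.0066 with plain library totals and −0.016 with totals without *Gm26917*. The share of higher genes among all genes called moved by over 10 points between scalings, from 27.5% to 47.3% at day 6 (39.5% as reported), from 37.9% to 52.5% over time in *siOct4* (42.1%), from 26.4% to 41.1% at day 3 (35.1%) and from 30.3% to 46.2% for the change of the difference (37.6%). Genes with few reads, *Tagln* and *Myocd*, are limited by depth.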
